A study of Mus musculus with 25 samples.

Results

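Loss of the ligand and loss of its receptor were compared directly in JAK2-mutant haematopoietic stem cells 4 weeks after the mutation was switched on. The comparison used 6 of the 25 libraries of the series, chosen by their labels: 3 without Il1b (Il1bKO_4w 5, 6 and 7) and 3 without Il1r1 (Il1r1KO_4w 5, 6 and 7). Both groups carried SclCre, counted here as CreERT2 (a Cre recombinase that tamoxifen switches on, driven by Scl regulatory sequence as its name states), the JAK2 V617F construct and GFP. The first group was IL-1b-/- and the second IL-1R1-/-. The donor marrow had been transplanted, tamoxifen was started 16 weeks later, and the animals were killed 4 weeks after that. The labels give the alleles of the donor cells; the genotype of the recipients is not given in the sources used here. Cells were sorted from bone marrow as Lin−Sca1+cKit+CD48−CD150+, and polyA RNA of each bulk sample was amplified. For scale, 3 mutant libraries with both genes intact at 4 weeks (VF_4w) and 4 libraries of each knockout at 2 weeks are quoted. The fit also held 4 wild-type libraries (SclCre and GFP without V617F) and 4 mutant libraries with both genes intact, all at 2 weeks. These entered the estimate of the spread between libraries. The 2 times were processed as 2 batches, so each comparison was made within a time.

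IL-1β is an inflammatory cytokine that binds the receptor chain IL-1R1, which then recruits the accessory chain IL-1RAP. The complex signals through MyD88, IRAK kinases and TRAF6 to NF-kB and MAP kinases. IL-1R1 also binds IL-1α, so loss of the receptor removes the response to more than one ligand. In bone marrow IL-1 is known to push stem cells towards division and myeloid output.

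The targeted ligand matched its label, as far as a gene of low counts can show. Il1b (ENSMUSG00000027398, chr2:129364570-129371139 in mm10) had 0 reads in each of the 3 Il1bKO libraries and 84, 46 and 55 reads in Il1r1KO_4w 5, 6 and 7. In CPM (counts scaled to the size and composition of each library) the receptor-null libraries held 3.75, 1.66 and 2.10. Against a floor of 3 reads over the group, which covers counting error only, the level without Il1b was at least 80.2-fold lower. Libraries with Il1b intact could also be near the floor. VF_4w 5, 6 and 7 held 0.721, 14.1 and 0.0312 CPM, and the receptor-null libraries at 2 weeks ranged from 0 to 1.02 CPM. With an adjusted p of 0.172 the difference missed the threshold of 0.05. This and every other adjusted p for a gene come from edgeR's quasi-likelihood test with Benjamini-Hochberg adjustment.

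The receptor label could not be checked in the same way. Il1r1 (chr1:40225080-40317257) was read at 24.2, 9.79 and 17.6 CPM in the libraries labelled Il1r1KO and at 0.301, 12.6 and 13.8 CPM in Il1bKO_4w 5, 6 and 7. Counts over a whole gene do not show which exons are left. The groups overlapped (log2 −0.96, SE 0.70, adjusted p = 0.51, edgeR). Without Il1bKO_4w 5, whose 0.301 CPM came from 12 reads, the difference was −0.38.

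Both groups carried the transgenes, at levels that were not equal. pEGFP gave 385, 519 and 530 CPM without Il1b and 1473, 926 and 1007 CPM without Il1r1. The groups did not overlap, and the mean log2 difference, with 1 added to each CPM, was −1.23. Exons 3 to 12 of human JAK2 gave 86.6, 65.8 and 110 CPM against 140, 144 and 177 CPM (log2 −0.83), again without overlap. Each had an exact two-sided permutation p of 0.1, the smallest that 3 against 3 allows (adjusted over the 4 constructs, 0.2). For exons 13 to 25 the log2 difference was −0.46 (exact permutation p = 0.3), and it was −0.73 without Il1bKO_4w 5 and −0.17 without Il1bKO_4w 6. CreERT2 (828, 634 and 445 against 430, 426 and 448 CPM) stood at 0.50 (exact permutation p = 0.2), and at 0.29 without Il1bKO_4w 5. VF_4w 5, 6 and 7 gave 489, 541 and 505 CPM for pEGFP and 116, 108 and 115 CPM for JAK2 exons 3 to 12. For exons 13 to 25 they gave 54.1, 60.8 and 43.6 CPM, and for CreERT2 388, 195 and 225 CPM. In 4 libraries a side at 2 weeks the log2 differences were −0.96 for pEGFP, −0.80 and −0.75 for the JAK2 parts, and 0.27 for CreERT2. Mouse Jak2 was at 64.8, 73.7 and 89.0 CPM against 79.2, 87.2 and 92.6 CPM (log2 −0.19, SE 0.20, adjusted p = 0.665, edgeR), and Echdc2 at 956, 653 and 521 against 593, 593 and 523 CPM (0.32, SE 0.21, adjusted p = 0.466). The part of unequal transgene reads in the gene differences was not tested.

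One library, Il1bKO_4w 5, stood apart from the other 5 and is one in 3 of its group. It had 40178173 counts, the most of the series, but 1759 of the tested genes had 0 reads in it, against 473 to 592 in the others. Of these, 856 were read in all other 5 libraries; the corresponding number was 15 to 32 for each of those. Its correlation with the others over log2 CPM was 0.839 to 0.853, while those 5 correlated among themselves at 0.912 to 0.945. Across genes it lay outside the range of the other 5 in 61.7% of cases. A model that weights libraries by their fit (limma voom with quality weights) gave it 0.0536, against 0.283 to 2.68 (median 1.22) for the other 24 libraries. The receptor-null library Il1r1KO_4w 5 had the next lowest weight, 0.283, and was outside the range of the others in 45.5% of genes, against 18.6% to 23.3% for the remaining 4.

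These libraries carried much of what passed without adjustment. At unadjusted p under 0.05, 2107 of 13630 genes (15.5%) differed. When Il1bKO_4w 5 was left out, 755 of them (35.8%) kept an unadjusted p under 0.05 in the same direction and 26 turned sign. Leaving out Il1r1KO_4w 5 kept 1006 (47.7%), and leaving out any of the other 4 kept 73.3% to 85.2%. Counts and medians of gene lists are therefore given with and without these 2 libraries.

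**Figure D1:**
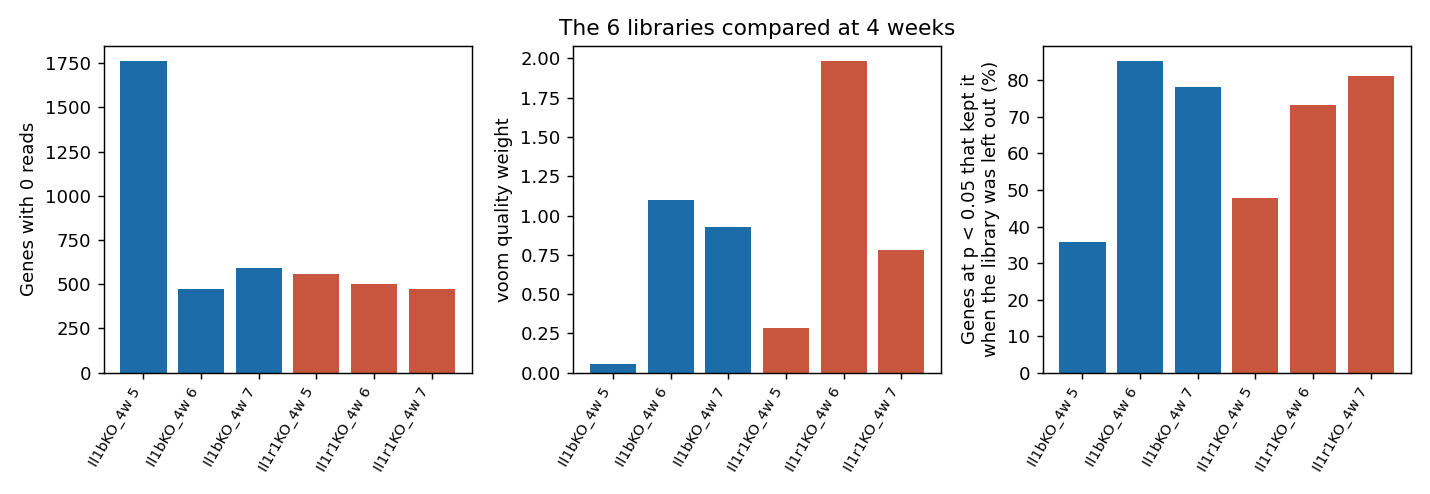
Bars show, for each of the 6 libraries compared, the number of tested genes with 0 reads, the voom quality weight (no unit) and the percent of the 2107 genes at unadjusted p under 0.05 that kept it when that library was left out. Blue bars are Il1bKO_4w and red bars Il1r1KO_4w; Il1bKO_4w 5 has 1759 genes without reads and the lowest weight, 0.0536.

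The knockouts differed in 16 genes of 13630 after adjustment, 8 higher without Il1b (0.0587% of genes tested) and 8 lower (0.0587%; 0.117% in all). The 2 groups did not overlap in 601 genes (4.41%) with higher and 829 (6.08%) with lower values without Il1b. The p-values measure the spread between these libraries; the labels do not say that each came from 1 animal. In bulk RNA, fewer cells of a type and less RNA per cell cannot be told apart. The spread was estimated over all 25 libraries. With only the 6 compared libraries the fit called 0 genes (431 at unadjusted p under 0.05), with the 9 libraries of 4 weeks also 0 (696), and limma voom called 2 (0.0147%), while DESeq2 called 281. Without Il1bKO_4w 5 the edgeR count was 12 (0.088%; 5 higher, 0.0367%, and 7 lower, 0.0513%), and 7 of these were among the 16.

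Trak2, an adaptor that links mitochondria to kinesin motors, was the gene of lowest p. It is read from chr1:58900449-58973430. Its level was 73.4, 53.5 and 53.1 CPM in Il1bKO_4w 5, 6 and 7 and 31.8, 23.3 and 23 CPM in the receptor-null libraries. The groups did not overlap, and VF_4w (66.8, 69.4 and 54.8 CPM) lay with the ligand-null group, so it was the receptor-null level that stood apart from the mutants with both genes intact. The log2 difference was 1.20 (SE 0.15, adjusted p = 7.3e-04, edgeR), 1.03 without Il1bKO_4w 5 (adjusted p = 0.00599) and 0.93 at 2 weeks (adjusted p = 0.00206). Trak2 was called in 14 of 17 alternatives; the others were the fits that used 4-week libraries alone.

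Further along the same chromosome, 3 genes called at 2 weeks had the same direction at 4 weeks. Wdfy1, an endosomal adaptor, was at 69.1, 157 and 150 CPM without Il1b against 36.0, 32.6 and 35.7 CPM without Il1r1, with 136, 169 and 143 CPM in VF_4w. Its value in Il1bKO_4w 5 was the lowest of its group, and at 4 weeks it passed without that library but not with it (log2 1.85, adjusted p = 0.0589 with it; 2.14, adjusted p = 0.0456 without it; edgeR). It also passed without Il1bKO_4w 6 (1.65, adjusted p = 0.0401, edgeR) and in DESeq2 (1.84, adjusted p = 1.4e-04). Lancl1, which binds glutathione, was at 102, 126 and 98.0 against 94.3, 75.8 and 54.9 CPM (log2 0.54, adjusted p = 0.161, edgeR). Acadl, the long-chain acyl-CoA dehydrogenase of fatty acid oxidation, was at 169, 178 and 226 against 157, 138 and 114 CPM (0.49, adjusted p = 0.193). None of these overlapped between the groups, although Lancl1 and Acadl did not pass at 4 weeks. At 2 weeks the differences were 2.00 for Wdfy1, 0.79 for Lancl1 and 0.76 for Acadl (adjusted p = 0.0173, 0.0173 and 0.0444, edgeR).

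All of these genes lie on the side of Il1r1 with higher coordinates. Trak2 is 18.6 Mb from Il1r1, Acadl 26.5 Mb, Lancl1 26.7 Mb and Wdfy1 39.4 Mb. Chromosome 1 holds 775 of the genes tested (5.69%), and it held 4 of the 4 genes called higher without Il1b at 2 weeks (0.0293% of genes tested). At 4 weeks it held 2 of the 8 called higher and 0 of the 8 called lower. Within 20 Mb of Il1r1, 2 of 163 genes were called higher at 4 weeks, and within 20 Mb of Il1b on chromosome 2, 0 of 252 were called. Within 10 Mb the counts were 0 of 84 around Il1r1 and 0 of 170 around Il1b. Whether sequence near the knocked-out alleles differed between the strains was not tested.

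**Figure D2:**
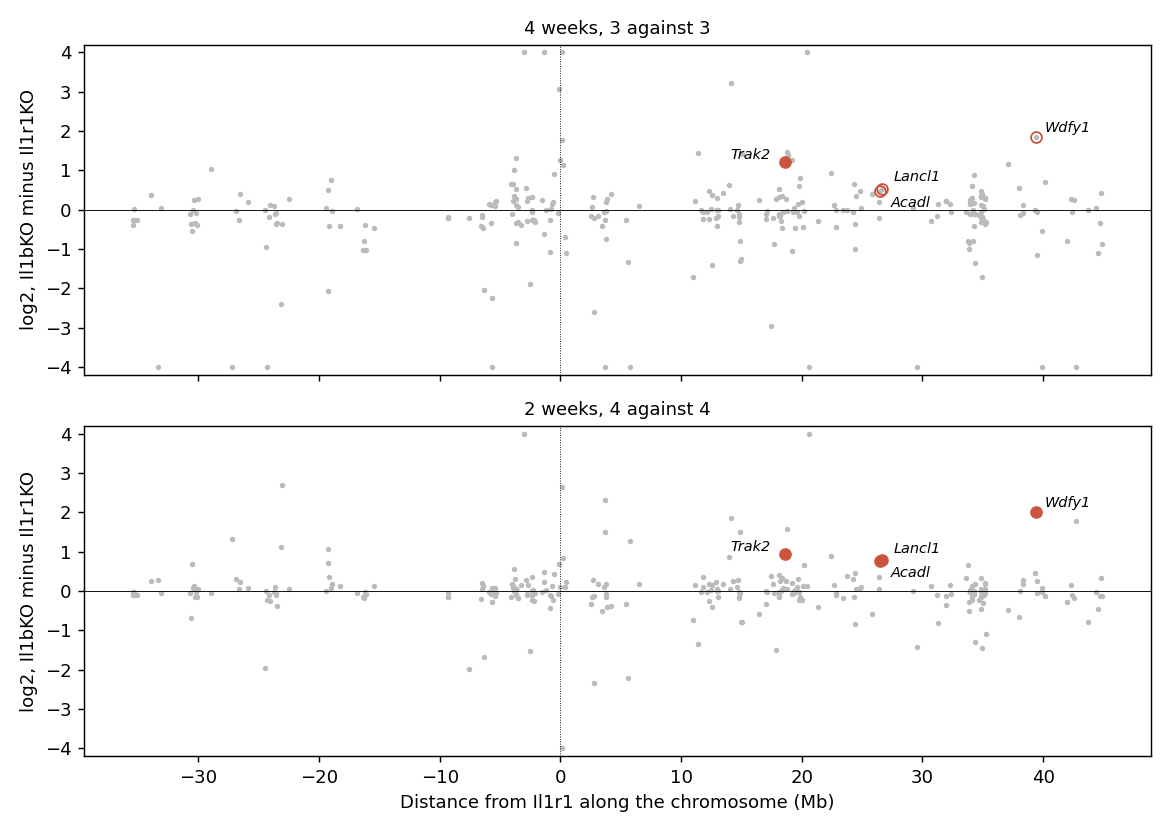
Each grey point is a tested gene within 45 Mb of Il1r1, placed by its distance from Il1r1 in Mb (0, dotted line) and by its log2 difference, Il1bKO minus Il1r1KO, at 4 weeks (top) and 2 weeks (bottom); values past 4 in size are drawn at the edge. Trak2, Acadl, Lancl1 and Wdfy1 lie above 0 at both times, with filled red circles where the adjusted p was under 0.05 and open ones where it was not.

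Il1r1 lies in a cluster of genes that encode related receptors. Il18rap, a chain of the IL-18 receptor 0.198 Mb away, gave 24.3, 18.4 and 18.5 CPM without Il1b and 14, 4.19 and 9.40 CPM without Il1r1 (log2 1.15, unadjusted p = 0.0244, adjusted p = 0.263, edgeR). Il18r1, the other chain, gave 0.377, 3.28 and 8.34 against 0, 0 and 0.497 CPM (adjusted p = 0.286). Neither passed the test. The groups were apart for Il18rap and overlapped for Il18r1.

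Chrnb1, a subunit of the muscle acetylcholine receptor, was higher without Il1b, at 63.2, 24.3 and 26.8 CPM against 6.20, 7.26 and 11 CPM. Il1bKO_4w 5 was the highest library, and VF_4w (18.8, 11.6 and 24.3 CPM) reached the ligand-null range only in its highest library. The log2 difference was 2.22 (SE 0.33, adjusted p = 0.00461, edgeR), 1.64 without Il1bKO_4w 5 (adjusted p = 0.0316) and 0.66 at 2 weeks (unadjusted p = 0.026, edgeR).

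Cpt1a, which brings long-chain fatty acids into mitochondria, was at 264, 145 and 176 CPM without Il1b and 97.0, 110 and 119 CPM without Il1r1. Il1bKO_4w 5 was again highest, and VF_4w (132, 113 and 132 CPM) overlapped the receptor-null range. The difference was log2 0.85 (SE 0.15, adjusted p = 0.0234, edgeR), but 0.56 without Il1bKO_4w 5 (adjusted p = 0.134) and −0.27 at 2 weeks. The change between the times, 1.12 (SE 0.20), had the lowest p of all genes and did not pass (adjusted p = 0.106).

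The other genes described here as higher without Il1b lost their call without Il1bKO_4w 5. Dip2c, of the DIP2 family, showed the weight of that library most: 66.6 CPM in it, 9.45 and 18.0 in its replicates and 4.64, 7.15 and 7.07 in the receptor-null libraries. Its log2 difference was 2.32 with the library (adjusted p = 0.0342, edgeR) and 1.12 without it (adjusted p = 0.293). Zfp568, a KRAB zinc finger repressor, was at 40.8, 15.6 and 23.8 against 7.59, 8.06 and 9.25 CPM, and its difference went from 1.69 (adjusted p = 0.0342) to 1.25 (0.207). Avl9, of the late secretory pathway, depended less on it in size (82.0, 68.3 and 85.8 against 43.8, 44.4 and 45.7 CPM; 0.82, adjusted p = 0.0311, to 0.79, adjusted p = 0.115). AC149090.1, a gene model on an unplaced scaffold whose counts may be shared with a near-identical copy, was at 687, 535 and 598 against 328, 308 and 235 CPM (1.06, adjusted p = 0.0214, to 0.97, adjusted p = 0.104).

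Dock2 was the gene called lower without Il1b at both times. It encodes the Rac activator that blood cells use to migrate (chr11:34226815-34783892). The ligand-null libraries gave 110, 110 and 119 CPM and the receptor-null libraries 240, 251 and 296 CPM. VF_4w (234, 189 and 244 CPM) overlapped the receptor-null range, so here the ligand-null level stood apart. The log2 difference was −1.22 (SE 0.20, adjusted p = 0.00813, edgeR), −1.20 without Il1bKO_4w 5 (adjusted p = 0.0456) and −1.30 at 2 weeks (adjusted p = 0.00204). Dock2 thus differed by a similar amount at both times, the change between them being 0.08 (SE 0.26).

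Purb, a repressor that binds single-stranded purine-rich nucleic acid, was at 64.4, 72.9 and 73.8 CPM against 130, 128 and 126 CPM. The 3 libraries of each group were close together, and VF_4w (96.7, 125 and 79.9 CPM) lay between. The difference was log2 −0.87 (SE 0.13, adjusted p = 0.00486, edgeR), −0.80 without Il1bKO_4w 5 (adjusted p = 0.0456) and −0.07 at 2 weeks, where the groups overlapped. Purb was called in 14 of 17 alternatives.

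Gm4841 lies in the cluster of interferon-inducible GTPase genes around Iigp1 on chromosome 18. It was at 1.33, 0.886 and 0.992 CPM without Il1b, 12.1, 7.01 and 9.06 CPM without Il1r1 and 10.1, 29.3 and 7.49 CPM in VF_4w. The difference was log2 −3.13 (SE 0.47, adjusted p = 0.00461, edgeR) and −3.32 without Il1bKO_4w 5 (adjusted p = 0.0246), but −0.30 at 2 weeks. Reads of such close paralogs can be split between them, so the value is uncertain. Of 24 tested members of the fixed list of interferon gamma GTPases and serpins, 0 were called. In that list 11 members were above 0 and 13 below with all 6 libraries (median −0.17), 4 and 20 without Il1bKO_4w 5 (−0.34), and 9 and 15 without Il1r1KO_4w 5 (−0.22). At 2 weeks the list had 16 above 0 and 8 below (0.18).

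Strap, a WD-repeat protein first known as a partner of TGF-beta receptors, was at 165, 226 and 235 against 417, 313 and 311 CPM, with the extremes in the libraries numbered 5 on each side. Its difference of −0.73 (SE 0.14, adjusted p = 0.0263, edgeR) was −0.59 without Il1bKO_4w 5 (adjusted p = 0.153), and at 2 weeks it was −0.54 (adjusted p = 0.19) with no overlap. Tpm4, a tropomyosin of the actin cytoskeleton, was even among the ligand-null libraries (24.2, 24 and 22.1 CPM) and spread among the receptor-null ones (118, 70.2 and 38.3 CPM). It stood at −1.69 (adjusted p = 0.0311), and at −1.21 without Il1r1KO_4w 5 (adjusted p = 0.177).

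The other 3 genes called lower had almost no reads without Il1b. Arhgef16, a guanine nucleotide exchange factor gene, had 0 reads in the 3 ligand-null libraries and 359 over the receptor-null ones, at 13.5, 1.12 and 0.956 CPM, which is at least 156-fold lower. Most of that level came from Il1r1KO_4w 5. The lincRNA gene 1810020O05Rik had 0 reads against 67 (at least 29.1-fold lower). Nat1, an arylamine N-acetyltransferase, had 1 read against 151, a ratio of 191 with a 95% exact (Clopper-Pearson) interval of 33.8 to 7603 that covers counting error only. All 3 were read at 2 weeks in ligand-null libraries, where their groups overlapped. Cmc1 (log2 −0.76, adjusted p = 0.0596), Mtus1 (2 against 347 reads, adjusted p = 0.0768) and Tc2n (1 against 352 reads, adjusted p = 0.0888) came next and did not pass the edgeR test.

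**Figure D3:**
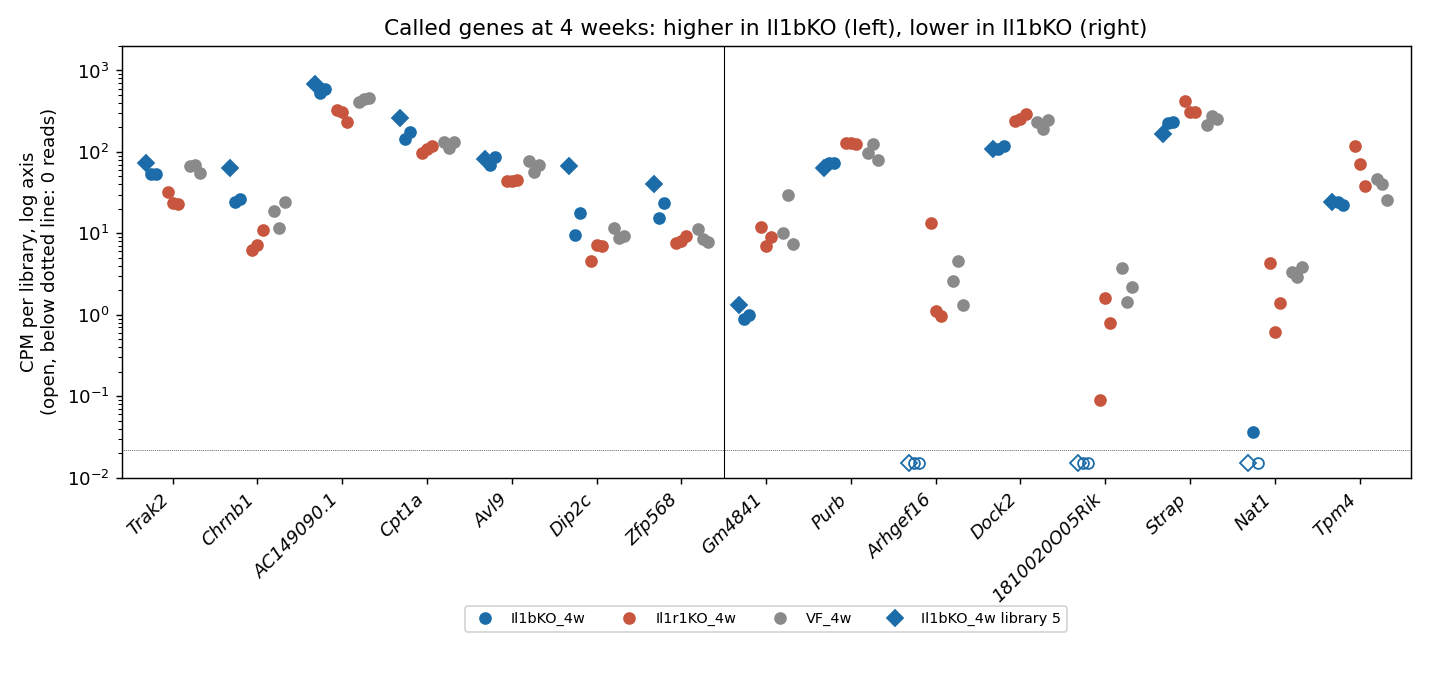
Each point is the level of a called gene that the text names, in one library at 4 weeks, in CPM on a log axis, with open points below the dotted line for 0 reads; blue is Il1bKO_4w (diamond, library 5), red Il1r1KO_4w and grey VF_4w. Trak2 and Dock2 show the 2 groups well apart, with VF_4w beside Il1bKO_4w for Trak2 (54.8 to 69.4 CPM) and beside Il1r1KO_4w for Dock2 (189 to 244 CPM).

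Set against the mutants with both genes intact, the called genes fell on both sides. Among the 8 higher without Il1b, VF_4w overlapped the ligand-null range alone in 4 and the receptor-null range alone in 3. Some of these overlaps were slight. For Chrnb1 the highest VF_4w and the lowest ligand-null library were both at 24.3 CPM. For Dip2c the VF_4w mean of 9.93 CPM was nearer the receptor-null mean (6.29) than the ligand-null mean (31.3). Among the 8 lower, VF_4w overlapped the receptor-null range alone in 6 and the ligand-null range alone in 1. Of those 6, Tpm4 had a VF_4w mean (37.8 CPM) nearer the ligand-null mean (23.4) than the receptor-null mean (75.4). These are descriptions of 3 libraries a group, with no test.

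Leaving out Il1bKO_4w 5 changed which genes were called. The calls that held were Trak2 and Chrnb1 on the higher side and Gm4841, Purb, Arhgef16, Dock2 and 1810020O05Rik on the lower. In 6 of the 8 genes called higher, and in 3 of the 6 called lower that had any reads without Il1b, that library was the farthest of its group from the receptor-null mean. The size of the difference was smaller without it in 8 of 8 and in 4 of those 6 genes. These genes were called with Il1bKO_4w 5 included, so such counts follow in part from the choice of genes. The same counts are not given for the other libraries. New calls without Il1bKO_4w 5 were Wdfy1, Homez and Fyb2 (higher) and Ryk and Dyx1c1 (lower).

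The newly called genes were picked because they passed without Il1bKO_4w 5 but not with it. That this library lay apart from its replicates in them follows largely from the choice. For Wdfy1 that library was lower than its replicates but still above the receptor-null libraries (69.1 against 32.6 to 36.0 CPM). Homez, a homeobox gene, was at 16.2 CPM in Il1bKO_4w 5 and 39.3 and 60.1 in its replicates, against 21.6, 26.3 and 24.3 without Il1r1. Ryk, a Wnt receptor, was at 36.1 in it and 16.0 and 11.6 in the others, against 36.8, 38.2 and 33.9 CPM (log2 −0.77 with it, −1.40 without it, adjusted p = 0.0456, edgeR). Dyx1c1, needed for dynein arm assembly in cilia, had 193 reads in that library and 0 in its replicates. Fyb2, an adaptor protein gene, had 0 reads in it and in the receptor-null libraries, and 3.58 and 13.7 CPM in its replicates.

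**Figure D4:**
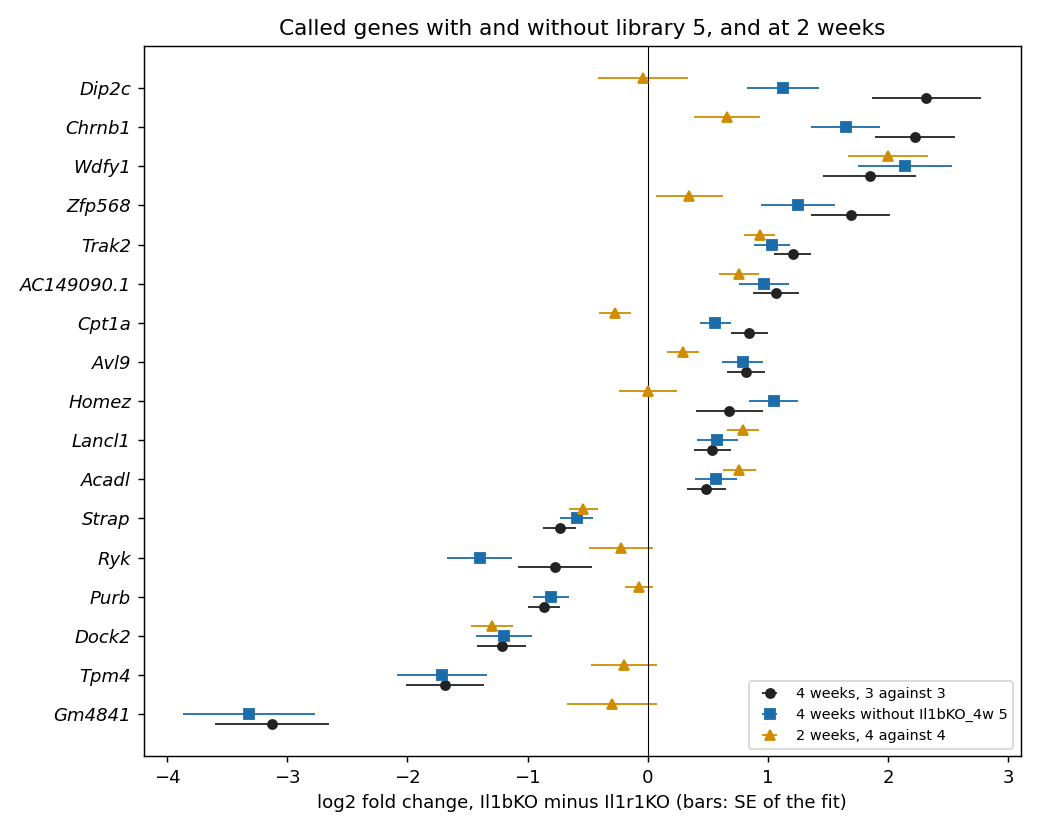
Points are log2 fold changes, Il1bKO minus Il1r1KO, with SE of the fit as bars, for named genes called in any of the 3 comparisons and with more than 3 reads a group. Dyx1c1, whose difference turned sign without Il1bKO_4w 5, is not drawn. Black circles are 4 weeks with all 6 libraries, blue squares the same without Il1bKO_4w 5 and yellow triangles 2 weeks; Dip2c moves from 2.32 to 1.12 without that library, while Dock2 stays near −1.2.

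The same comparison at 2 weeks set other libraries against each other, 4 a side, but came from the same fit. The spread behind both tests was estimated over all 25 libraries, so the 2 tests are not independent. At 2 weeks 5 genes of 13630 (0.0367%) were called: Trak2, Lancl1, Wdfy1 and Acadl higher and Dock2 lower (0.00734%) without Il1b. All 5 had the same sign at 4 weeks and 2, Trak2 and Dock2, were called there. In reverse, 6 of the 8 genes called higher at 4 weeks were above 0 at 2 weeks, with 5 at unadjusted p under 0.05 (1.67% of all genes tested were higher at that threshold, 3.02% in either direction). All 8 called lower were below 0 at 2 weeks, with 2 at unadjusted p under 0.05 (1.34%). The median log2 difference of the 8 higher genes was 1.30 at 4 weeks and 0.50 at 2 weeks. A test of the difference between the times called 0 of 13630 genes in edgeR (862 at unadjusted p under 0.05) and in limma voom, and 34 in DESeq2. Over all genes 6.32% were at unadjusted p under 0.05 in that test. Its lowest p-values belonged to Cpt1a, Dip2c, Gpr165 and Larp4 (higher at 4 weeks) and Arhgef16, 1810020O05Rik, Gm4841 and Purb (lower). Larp4, an RNA-binding protein gene, was at 251, 164 and 187 against 153, 144 and 153 CPM. Gpr165 had 33 reads, all in Il1bKO_4w 6, against 0.

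Gene lists were then read by counts and medians, beside the same for all genes. No member of the 18 pathway lists or of the 9 marker lists was called with adjustment. Over all genes 1038 (7.62%) were higher and 1069 (7.84%) lower without Il1b at unadjusted p under 0.05, and the median log2 difference was −0.04. Without Il1bKO_4w 5 these shares were 4.08% and 4.84% (8.92% in all), and without Il1r1KO_4w 5 they were 5.74% and 4.71%. With VF_4w 6 and both libraries numbered 5 left out they were 3.72% and 3.81%. By sign alone, 6221 of the 13630 genes were above 0 and 7351 below with all libraries. Those counts were 6327 and 7243 without Il1bKO_4w 5, and 6615 and 6934 without Il1r1KO_4w 5.

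The receptor relay itself showed little between the knockouts. Of 23 tested members of the IL-1 receptor pathway list, 3 were higher and 1 lower at unadjusted p under 0.05. The higher ones were Il18, Il18r1 and Il18rap and the lower one Il1b. The median was 0.15, with 0.19 without Il1bKO_4w 5 and 0.22 without Il1r1KO_4w 5. Il1rap, the accessory chain, was at 46.5, 28.2 and 41.2 CPM against 25.9, 25.2 and 29.7 CPM (log2 0.52, SE 0.29, adjusted p = 0.377, edgeR). Myd88, the adaptor, was at 99.1, 99.7 and 114 against 129, 99.3 and 99.8 CPM (−0.07), and Irak1, a kinase of the relay, at 197, 248 and 237 against 198, 251 and 279 CPM (−0.09). Traf6, the ubiquitin ligase downstream, was at 0.452 CPM in Il1bKO_4w 5 and at 67.3 and 64.1 in its replicates, against 37.3, 69.3 and 54.9 CPM.

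NF-kB genes were more often higher without Il1b than without Il1r1. Members lay on both sides of 0, with 18 above and 11 below. Of 29 tested members, 12 were higher and 0 lower at unadjusted p under 0.05, and the median was 0.31. Over all genes 7.62% were higher and 7.84% lower at that threshold. Without Il1bKO_4w 5 the counts were 8 and 0 (median 0.30), and without Il1r1KO_4w 5 they were 6 and 0 (0.18). At 2 weeks, where 1.67% of all genes were higher and 1.34% lower, the counts were 2 and 0 (0.11). With VF_4w 6 and both libraries numbered 5 left out they were 3 and 0 (0.24), where 3.72% of all genes were higher. In limma voom with all libraries they were 6 and 1 (0.21), where 494 of all 13630 genes were higher and 523 lower.

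Among subunits, Nfkb2, the p100 precursor of the non-canonical pathway, had the lowest p of the list. It was at 55.8, 38.6 and 37.5 CPM without Il1b and 19.9, 25.5 and 32.8 CPM without Il1r1, with no overlap, and VF_4w (33.7, 42.8 and 32.1 CPM) overlapped both. Its log2 difference was 0.75 (SE 0.19, unadjusted p = 5.6e-04, adjusted p = 0.113, edgeR), 0.54 without Il1bKO_4w 5 and 0.34 at 2 weeks. Rela, the main activating subunit, was at 139, 125 and 113 against 82.0, 105 and 116 CPM (0.31, unadjusted p = 0.0444, edgeR), with overlap.

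In the kinase complex and its adaptors the signs were mixed. Chuk, a catalytic kinase, was at 29.6, 74.8 and 87.9 CPM against 99.98, 64.5 and 84.7 CPM (log2 −0.37, and −0.03 without Il1bKO_4w 5). Ikbkb, the other catalytic kinase, was at 277, 177 and 242 against 156, 187 and 168 CPM (log2 0.45), and Ikbkg, the regulatory subunit NEMO, at 104, 90.5 and 81.6 against 51.9, 84.5 and 61.3 CPM (0.48). Traf1, a signalling adaptor and target, ranged widely, at 52.9, 23 and 9.70 against 2.86, 13.6 and 3.82 CPM (2.07). Traf2, its partner, was even within groups, at 58.2, 65.0 and 57.4 against 44.5, 51.9 and 47.7 CPM (0.33). Of these, Ikbkg, Traf1 and Traf2 were at unadjusted p under 0.05 also without Il1bKO_4w 5 in edgeR.

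Inhibitors and targets did not all follow. Tnip1, a brake on the pathway, was at 65.9, 58.9 and 54.8 against 33.2, 42.6 and 48.0 CPM (log2 0.54), without overlap. Nfkbia, the classical inhibitor and a quick target, was at 128, 101 and 116 against 196, 136 and 106 CPM (−0.34), the opposite sign. Icam1, an adhesion molecule, was at 91.4, 43.1 and 54.8 against 35.0, 41.3 and 41.2 CPM, and its difference went from 0.69 to 0.32 without Il1bKO_4w 5. Cflar, an inhibitor of cell death, went the other way, from 0.34 to 0.55, since that library was its lowest at 50.7 CPM, against 87.6 and 81.8 in the replicates.

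Promoters were searched on both strands for GGG, any 2 bases and then TTTCC, a simple form of the NF-kB site, in the 250 bases before and 50 after each start in RefSeq (GRCm38.p6). A match was found in 1.63% of 10504 promoters of tested genes, in 6 of 23 promoters of list members and in 2 of 10 of those at unadjusted p under 0.05. Those 2 are shown because their genes differed without adjustment and carry the letters; capitals mark the match. That of Nfkb2 begins 11 bases before the start (chr19:46304487-46304786, plus strand) and that of Traf2 31 bases after it (chr2:25546891-25547190, minus strand).
Nfkb2: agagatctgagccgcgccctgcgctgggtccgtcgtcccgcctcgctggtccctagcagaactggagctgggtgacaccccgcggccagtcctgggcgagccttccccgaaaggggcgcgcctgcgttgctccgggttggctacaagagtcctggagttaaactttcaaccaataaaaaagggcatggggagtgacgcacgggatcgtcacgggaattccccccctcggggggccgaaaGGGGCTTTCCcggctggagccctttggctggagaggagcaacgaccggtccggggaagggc
Traf2: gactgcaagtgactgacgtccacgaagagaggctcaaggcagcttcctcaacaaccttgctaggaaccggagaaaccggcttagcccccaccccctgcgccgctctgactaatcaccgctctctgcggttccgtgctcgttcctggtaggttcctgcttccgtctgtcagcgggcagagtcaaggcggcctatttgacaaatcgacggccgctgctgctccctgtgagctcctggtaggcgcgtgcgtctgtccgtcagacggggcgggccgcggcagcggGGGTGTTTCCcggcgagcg
The other matches were in Nfkbia, Tnfaip3, Rel and Il6, whose differences were −0.34, 0.53, 0.34 and −1.39 at unadjusted p above 0.05. A match is a description of letters only.

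Genes of cell division had values below 0, and their size depended on 2 libraries. Of 38 genes of G2 and mitosis, 37 were below 0, 15 of them at unadjusted p under 0.05 (median −0.55). Smc4, a condensin subunit, was at 213, 322 and 330 CPM against 605, 391 and 342 CPM. Ccnb1, the mitotic cyclin, was at 24.2, 120 and 103 against 256, 130 and 84.2 CPM, so that the libraries numbered 5 were lowest and highest of the 6. Without Il1bKO_4w 5 the list had 1 member at that threshold (median −0.35), and without Il1r1KO_4w 5 it had 0 (−0.26). With VF_4w 6 and both libraries numbered 5 left out the median was −0.08, and at 2 weeks it was 0.02.

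S phase genes showed less of this. Of 34, 33 were below 0, 5 of them at unadjusted p under 0.05 (median −0.27). The median was −0.15 without Il1bKO_4w 5 and −0.27 without Il1r1KO_4w 5. At 2 weeks 22 were below 0 and 12 above (−0.06). Rfc4, a clamp loader subunit, was at 66.6, 68.5 and 56.8 against 167, 97.4 and 96.1 CPM (log2 −0.91, unadjusted p = 0.0016, adjusted p = 0.154, edgeR). The 26 genes of quiescence and G1 control had 0 higher and 4 lower (median −0.11; −0.13 without Il1bKO_4w 5 and −0.07 without Il1r1KO_4w 5). Among them Ccnd3, a G1 cyclin, was at 236, 271 and 249 CPM against 315, 321 and 352 CPM, with a log2 difference of −0.39, −0.34 without Il1bKO_4w 5 and −0.42 without Il1r1KO_4w 5.

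Nuclear genes of oxidative phosphorylation were below 0 in 52 of 53 members (median −0.24, 13 at unadjusted p under 0.05), and in 52 of 53 without Il1bKO_4w 5 (−0.26). Without Il1r1KO_4w 5 this was 30 of 53 (−0.04). With VF_4w 6 and both libraries numbered 5 left out it was 39 of 53 (−0.05), 0 of them at unadjusted p under 0.05. At 2 weeks it was 49 of 53 (−0.09). Atp5g3, an ATP synthase subunit, was at 343, 372 and 329 against 611, 382 and 358 CPM, showing the high value of Il1r1KO_4w 5. Ndufs1, of complex I, was less tied to that library (135, 174 and 147 against 226, 210 and 180 CPM; log2 −0.43, and −0.36 without it). The 12 mitochondrially encoded genes tested had 6 members on each side of 0 (median −0.02), and 6 without Il1bKO_4w 5 and 8 without Il1r1KO_4w 5 were above 0.

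MYC and ribosome biogenesis genes had 8 of 36 members lower at unadjusted p under 0.05 (median −0.16). This was 3 without Il1bKO_4w 5 and 1 without Il1r1KO_4w 5, with a median of −0.14 in each case. At 2 weeks, where 1.34% of all genes were lower, it was 3, with 32 of 36 below 0 (−0.13). p53 targets had 4 of 24 higher and 0 lower (median −0.05), 3 and 1 without Il1bKO_4w 5 and 3 and 0 without Il1r1KO_4w 5 (0.07), with Trp53inp1, which promotes cell death and autophagy, at 65.9, 29.7 and 66.5 against 19.1, 21.0 and 27.5 CPM. Its log2 difference of 1.26 (SE 0.27, adjusted p = 0.0596, edgeR) missed the threshold, and was 1.09 without Il1bKO_4w 5.

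The remaining pathway lists had few members at unadjusted p under 0.05. Of 24 JAK-STAT5 genes 2 were higher and 0 lower (median 0.19), which became 0 and 0 without Il1bKO_4w 5 (0.15) and 1 and 0 without Il1r1KO_4w 5 (0.02). Of 35 type I interferon genes 1 was higher and 0 lower (0.17), and 0 and 0 without either library (0.09 in each case). The 25 MHC genes had 0 higher and 1 lower (−0.19). Of these, 13 were below 0 with all libraries, 22 without Il1bKO_4w 5 (−0.21) and 14 without Il1r1KO_4w 5 (−0.0087). At 2 weeks the sign was the other way, with 22 MHC genes above 0 and 3 below (0.18). Immediate early genes (30) had 4 higher and 2 lower (0.14), 2 and 1 without Il1bKO_4w 5 (0.04), and 2 and 2 without Il1r1KO_4w 5 (0.14). Glycolysis genes (26) had 2 and 4 (0.01), then 0 and 2 (0.01), and 2 and 2 (−0.05), in the same order. Cholesterol and fatty acid synthesis genes (30) had 2 and 2 (−0.13), 1 and 1 (−0.0016), and 1 and 3 (−0.13). Endoplasmic reticulum stress genes (27) had 1 and 2 (−0.10), 2 and 1 (−0.05), and 1 and 1 (−0.16).

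Stem cell genes had members on both sides, most of which rested on the libraries numbered 5. Of 38 long-term stem cell genes 5 were higher and 5 lower at unadjusted p under 0.05 (median 0.06), against 1 and 2 without Il1bKO_4w 5 (−0.07) and 2 and 1 without Il1r1KO_4w 5 (0.05). Procr (EPCR), a surface marker of stem cells, was at 204, 73.8 and 97.4 CPM against 60.7, 40.7 and 58.6 CPM without overlap (log2 1.23, adjusted p = 0.174, edgeR), and 0.68 without Il1bKO_4w 5. Hlf, a transcription factor of stem cells, was at 421, 254 and 317 against 161, 191 and 264 CPM (0.69), and 0.55 at 2 weeks. Slamf1, which encodes the CD150 used in the sort, was at 71.7, 86.7 and 60.3 against 160, 119 and 87.5 CPM (−0.74, and −0.73 without Il1bKO_4w 5). Ctnnal1 (alpha-catulin) was at 7.03, 47.9 and 47.8 against 117, 109 and 54.2 CPM (−1.44, and −0.96 without that library). Kit and Gata2 were read at 406 CPM or more in all 6 libraries. The 10 markers of the sorted cells had 2 higher and 2 lower (median 0.21), and 1 and 1 without Il1bKO_4w 5 (0.05) or without Il1r1KO_4w 5 (0.0036).

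**Figure D5:**
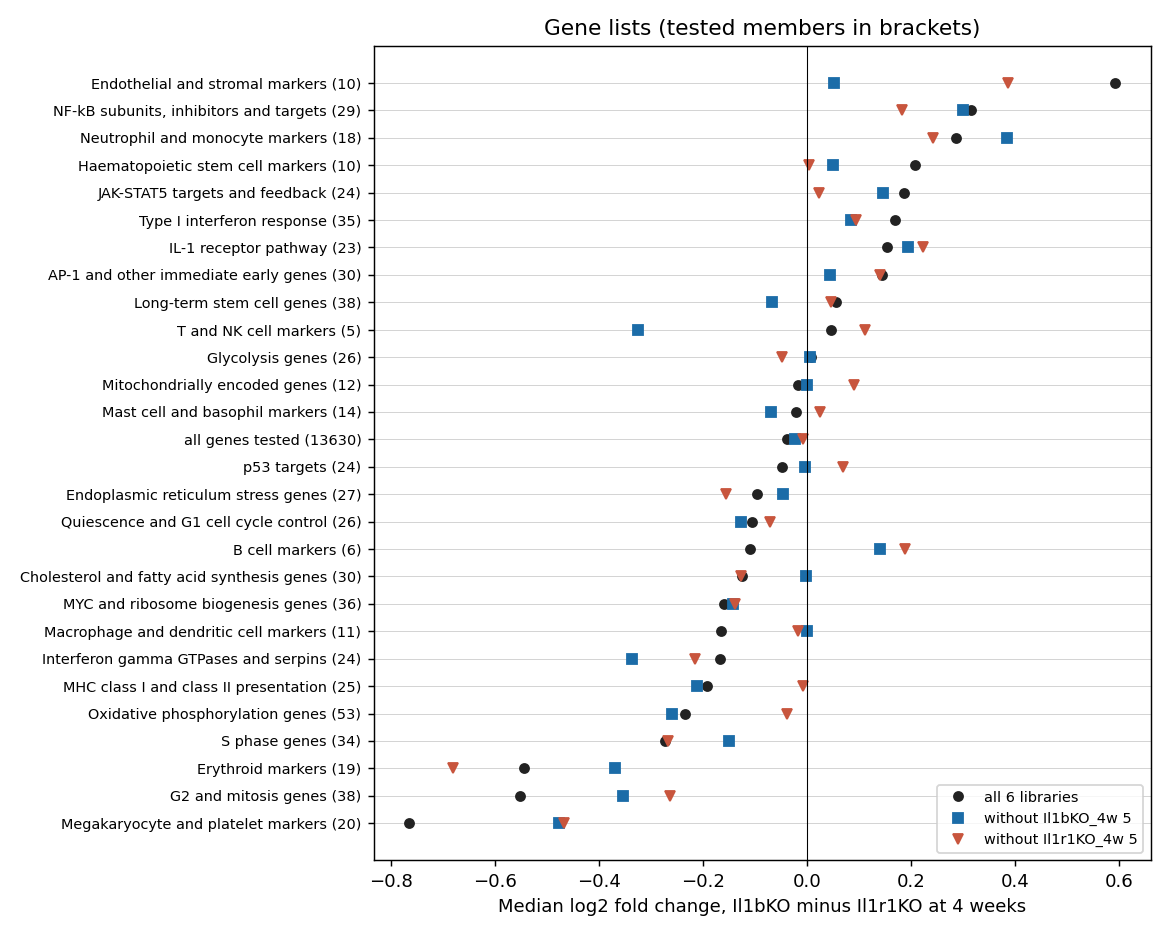
Points are medians of log2 fold changes, Il1bKO minus Il1r1KO at 4 weeks, over the tested members of each list (number in brackets), for all 6 libraries (black), without Il1bKO_4w 5 (blue) and without Il1r1KO_4w 5 (red). G2 and mitosis genes go from −0.55 to −0.35 and −0.26, while the NF-kB list stays above 0 at 0.31, 0.30 and 0.18.

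Markers of other cells that a stem cell sort can hold were counted in the same libraries. Megakaryocyte and platelet markers summed to 1476 to 1729 CPM without Il1b and 2200 to 2525 CPM without Il1r1, with no overlap. VF_4w 5, 6 and 7 summed to 1791, 4784 and 2017 CPM, which spread more widely than either knockout. Of 20 markers, 5 were above 0 and 14 below, and 5 were lower and 1 higher at unadjusted p under 0.05 (median −0.77). Gp1ba, a platelet adhesion receptor chain, was at 5.80, 16.1 and 17.5 against 42.0, 24.5 and 31.0 CPM, and Pf4, a platelet chemokine, at 79.0, 77.6 and 72.5 against 481, 155 and 200 CPM. The list's median was −0.48 without Il1bKO_4w 5, −0.47 without Il1r1KO_4w 5 and −0.38 at 2 weeks. Gp6 was at 0 in all 6 libraries. The part of these markers in the differences of Tpm4, an abundant platelet gene, and of Slamf1 was not tested.

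Erythroid markers summed to 2001 to 2396 CPM against 2282 to 3305 CPM (1 of 19 lower; median −0.55, −0.37 without Il1bKO_4w 5 and −0.68 without Il1r1KO_4w 5). Neutrophil and monocyte markers summed to 654 to 769 against 513 to 747 CPM (0 of 18; median 0.29, 0.38 and 0.24 in the same order). Mast cell and basophil markers (14 tested) had 1 higher and 1 lower, 0 and 0 without Il1bKO_4w 5, and 1 and 0 without Il1r1KO_4w 5. Macrophage and dendritic cell markers (11) had 0 and 2, then 1 and 1, and 0 and 2. B cell markers (6) had 1 and 0, 1 and 0, and 0 and 0, and T and NK cell markers (5) had 0 and 0 each time. Endothelial and stromal markers (10) had 1 and 1 (median 0.59), 0 and 1 without Il1bKO_4w 5 (0.05), and 1 and 1 without Il1r1KO_4w 5 (0.39). Their sums overlapped between the groups except for the endothelial and stromal list (280, 186 and 195 against 151, 176 and 174 CPM). Kdr, an endothelial receptor, was in contrast nearly absent without Il1b, at 0, 0.0369 and 0 CPM against 0.848, 7.51 and 1.87 CPM (unadjusted p = 0.001, adjusted p = 0.144, edgeR).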

How the data were processed

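Per the labels' protocols, polyA RNA of sorted cells was extracted with PicoPure and made into unstranded SMART-Seq v4 libraries. The authors deposited whole-number read counts per gene for 25 libraries, with 4 construct rows; featureCounts (no version given), STAR 2.7.10a, FastQC 0.11.5 and R 4.2.2 appear in the submitters' processing notes, with the build mm10. The table held 13641 genes, each with at least 69 reads in all. Library totals were 24328608 to 40178173 counts in the 6 libraries compared. Positions came from GENCODE vM21 (13623 genes matched).

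Counts were fitted in R 4.3.3 with edgeR 4.0.16 (TMM, filterByExpr, robust quasi-likelihood, 7 groups of 25 libraries, Benjamini-Hochberg at 0.05, 13630 genes tested). CPM are TMM-scaled. Fitted log2 differences cannot be interpreted where a group has 0 reads. Unstranded reads of overlapping genes cannot be told apart. The alternatives tried were DESeq2 1.42.0, voom with quality weights (limma 3.58.1), upper-quartile or RLE factors, other filters, smaller fits, a replicate block and each library left out. One fit (4 weeks only, without Il1bKO_4w 5) was added after seeing the data. Named genes were Il1b, Il1r1, Il1rap, Jak2 and Echdc2; the 15 lowest p per direction called (mean log2 CPM of at least 1), filled to 8; called list members; called genes within 20 Mb of Il1r1 or Il1b; 6 per direction called with and without Il1bKO_4w 5; 4 called only without it; 4 by time dependence. Genes called at 2 weeks, AC149090.1, 1810020O05Rik and Gm4841 were also named, and list members at unadjusted p under 0.05 were chosen after their values were seen. The members and gene lists were chosen with earlier results of these data known. A called gene is counted but not reported here. The pipeline was tested on simulated data.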

Additional observations from a re-analysis of the deposited data

Results flagged for a closer look

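In groups of 4 to 10 libraries, a highest or lowest library was looked for whose gap to the next took most of the group's range (Dixon's 95% value). This could be done only in the 2-week groups, since those of 4 weeks have 3 libraries; of 38 groups tested, 2 had one, and chance gives about 1 in 20. Purb, lower without Il1b at 4 weeks, was at 75.9 CPM in Il1r1KO_2w 2, below the 101 to 106 CPM of the other 3 libraries. Dip2c, higher without Il1b at 4 weeks, was at 16.8 CPM in Il1bKO_2w 2, above the 10.9 to 11.9 CPM of the others.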

How the results depend on the processing

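The count of genes called at 4 weeks (16) was 16 with RLE or upper-quartile factors and with no filter, and 13 with CPM of at least 5 in 3 libraries. It was 281 in DESeq2, 2 in limma voom, 0 with only the compared groups, 0 with the 9 libraries of 4 weeks, 8 without VF_4w 6, Il1bKO_4w 5 and Il1r1KO_4w 5, and 1 with 4 weeks only and without Il1bKO_4w 5. Leaving out single libraries gave 10 to 365: 12 without Il1bKO_4w 5, 365 without Il1bKO_4w 6, 56 without Il1bKO_4w 7, 10 without Il1r1KO_4w 5, 13 without Il1r1KO_4w 6 and 19 without Il1r1KO_4w 7. The cause was not tested. The 2-week count (5) was 18 in DESeq2, 10 in limma voom and 2 to 4 with single libraries left out. For the difference between times (0), DESeq2 called 34 and leaving out single libraries 0 to 12. With the replicate block, 5 genes were called at 4 weeks and 3 at 2 weeks. Same-numbered libraries at 4 weeks showed little sign of pairing (correlations of their deviations 0.048, 0.032 and 0.014). With 3 libraries a group this cannot settle whether they were paired. Over the named genes, 409 values kept direction and side of the threshold, 115 lost the call, 19 gained one and 5 reversed. All 5 were of Dyx1c1 (0.59), whose 193 reads without Il1b came from library 5: −5.19 in limma voom, −1.76 with the replicate block, −7.67 without the 3 libraries named above, −7.90 with 4 weeks only and without Il1bKO_4w 5, and −7.91 to 1.17 with single libraries left out. Gpr165 had no reads left without Il1bKO_4w 6 and no value there. The construct differences kept their direction, in sizes of −0.73 to −0.17 for JAK2 exons 13 to 25 and 0.29 to 0.74 for CreERT2 with single libraries left out. Genes with few reads are limited by depth.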
